A study of Caenorhabditis elegans with 2 samples.

Results

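Closely spaced runs of genes on the same strand were found from gene positions alone, and the ISW-1 binding sites at the first gene of each run were set against those at the genes behind it. Protein-coding genes of the Ensembl annotation of Caenorhabditis elegans (WBcel235, the same build as ce11) were ordered along each chromosome, and neighbouring genes on the same strand that did not overlap and lay at most 500 bp apart were chained. The chains of 2 or more genes gave 2587 runs with 6044 of the 19973 protein-coding genes (30.3%). Each run has 1 first gene, at its 5′ end, and the 3457 others are called downstream genes. The remaining 13929 genes, called single genes here, lay in no run. The choice used no ChIP value, so no summit placed a gene in its role. The rule does set the space upstream of a gene, which differs by role and is given below.

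In nematodes many such runs are operons. A single promoter in front of the first gene gives a polycistronic pre-mRNA, which is cut into separate mRNAs as each downstream message receives an SL2-type spliced leader by trans-splicing, and the genes of an operon usually stand very close together. Operons are known to be rich in genes for basic functions such as translation, splicing and mitochondrial activity. ISW-1 is the ATPase of the worm's ISWI-type chromatin remodelling complexes, which slide and space nucleosomes, and promoters are a place where such enzymes are known to work. Position alone does not prove an operon: a run may also hold independently transcribed neighbours, and no transcript data were used here.

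The series maps ISW-1 by ChIP-seq, in which chromatin is sheared, here by sonication, and the DNA bound to a protein is recovered with an antibody and sequenced. There is 1 group of 2 biological replicates: whole L1 larvae of strain OP181 at 6 hours, synchronised by starvation after bleaching, precipitated with an anti-GFP antibody. The strain carries the transgene wgIs181, which holds isw-1 fused to TY1, EGFP and 3xFLAG tags and unc-119(+), in an unc-119(ed3) background. The tagged protein thus comes from a transgene, cell types of the larva cannot be told apart, and the labels name a possible control experiment that was not analysed here, so no group can be compared with another.

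Values come from peak lists that the authors called on both replicates together (the conservative list, 2143 peaks) and on each replicate (2090 peaks in replicate 1 and 1756 in replicate 2). A summit is the base of strongest enrichment in a peak. The signal is the signal value that the authors deposited with a peak, and it can be compared only within a list. A gene was counted as having a summit when 1 lay in the window that begins 500 bp before its annotated start and ends 250 bp past it. Read depth is unknown from peak lists. Genes are not replicates, so no test over genes was made. The main shares by role are given with a 95% Wilson interval, which covers the number of genes only, and with their value in each replicate's own list. Many of the other shares are given without them.

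The sequences below are chosen examples, most of them at strong summits, and not a sample of typical sites. They show DNA around summits in front of first genes, DNA around summits inside runs, and short gaps inside runs without a summit. All are printed 5′ to 3′ on the strand of the run, from the genome sequence of the same build, with each CG dinucleotide in capitals. The first set holds the summit base and 50 bp to each side, upstream of 4 first genes. They are rpl-20 and rpl-15, which encode proteins of the large ribosomal subunit, tasp-1, which encodes a taspase-like protease, and fib-1, which encodes fibrillarin, the methyltransferase of nucleolar RNA. Their windows lie at chrIV:4750014-4750114 (minus strand), chrIV:654879-654979 (minus), chrIII:10759195-10759295 (plus) and chrV:15002271-15002371 (minus), outside annotated genes.
rpl-20: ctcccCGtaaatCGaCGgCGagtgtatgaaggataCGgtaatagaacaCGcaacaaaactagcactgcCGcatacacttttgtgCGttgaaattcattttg
rpl-15: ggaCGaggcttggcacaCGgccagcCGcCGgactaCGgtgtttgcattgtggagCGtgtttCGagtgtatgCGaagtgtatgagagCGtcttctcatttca
tasp-1: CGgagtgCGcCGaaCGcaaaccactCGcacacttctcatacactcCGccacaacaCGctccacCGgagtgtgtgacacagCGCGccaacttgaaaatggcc
fib-1: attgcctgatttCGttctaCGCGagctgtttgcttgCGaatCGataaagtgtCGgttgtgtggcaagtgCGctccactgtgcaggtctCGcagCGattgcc

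The second set holds the same width around summits inside runs, each in the gap in front of a downstream gene. These are dld-1 (dihydrolipoamide dehydrogenase, a mitochondrial enzyme; chrIV:14464219-14464319, plus), eelo-2 (chrIV:17249849-17249949, plus), fbxl-2 (chrIII:4757130-4757230, plus) and cmtr-1 (an mRNA cap methyltransferase; chrII:15025927-15026027, plus). The dld-1 window overlaps the annotated noncoding RNA gene LLC1.120, and the others overlap no annotated gene.
dld-1: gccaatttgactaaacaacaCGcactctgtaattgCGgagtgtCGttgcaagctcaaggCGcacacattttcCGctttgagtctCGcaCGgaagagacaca
eelo-2: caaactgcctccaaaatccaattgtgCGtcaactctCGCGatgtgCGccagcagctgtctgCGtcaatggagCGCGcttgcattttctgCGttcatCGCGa
fbxl-2: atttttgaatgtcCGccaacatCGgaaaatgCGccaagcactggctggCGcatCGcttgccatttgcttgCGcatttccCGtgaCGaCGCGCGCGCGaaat
cmtr-1: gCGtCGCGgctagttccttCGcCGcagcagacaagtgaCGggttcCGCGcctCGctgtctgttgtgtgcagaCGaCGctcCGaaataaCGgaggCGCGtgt

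The third set holds whole gaps without a summit, from the end of a gene to the start of the next: tasp-1 to dpy-28 (chrIII:10763022-10763130, plus), rpl-15 to K11H12.1 (chrIV:653422-653479, minus), fib-1 to rps-16 (chrV:15000542-15000650, minus) and gpd-2 to gpd-3 (chrX:3113342-3113442, minus), the last a textbook operon of glyceraldehyde-3-phosphate dehydrogenases.
tasp-1 to dpy-28: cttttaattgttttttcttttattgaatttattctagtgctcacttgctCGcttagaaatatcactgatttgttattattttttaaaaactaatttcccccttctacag
rpl-15 to K11H12.1: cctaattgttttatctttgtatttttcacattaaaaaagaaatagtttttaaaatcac
fib-1 to rps-16: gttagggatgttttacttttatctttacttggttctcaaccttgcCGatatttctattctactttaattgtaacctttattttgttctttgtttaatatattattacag
gpd-2 to gpd-3: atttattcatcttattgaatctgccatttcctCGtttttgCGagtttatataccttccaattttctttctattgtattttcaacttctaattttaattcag

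The 8 summit windows held 7 to 15 CG dinucleotides and were 44.6% to 63.4% G or C. The 4 gaps held 0 to 2 CG dinucleotides and were 19.0% to 26.7% G or C, below the 31.0% of all gaps of at most 200 bp. Except for the gap in front of K11H12.1, each printed gap ended in AG, the bases of a splice acceptor, directly before the annotated start.

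First genes of runs had a summit more often than downstream genes. A summit lay at 431 of 2587 first genes (16.7%, interval 15.3% to 18.1%), at 158 of 3457 downstream genes (4.57%, 3.92% to 5.32%) and at 1030 of 13929 single genes (7.39%, 6.97% to 7.84%). The background over all protein-coding genes was 8.11%, so the first genes stood above it and the downstream genes below it. In replicate 1's own list the shares were 16.5% of first genes, 4.69% of downstream genes and 7.27% of single genes, against 8.02% of all genes. In replicate 2's own list they were 14.6%, 3.82% and 6.32% in the same order, against 6.96% of all genes. First genes exceeded downstream genes by 12.1 percentage points in the conservative list, by 11.8 points in replicate 1 and by 10.8 points in replicate 2. The SD between the replicates was 0.753 points (n = 2), which describes their 2 lists only and not the uncertainty of a difference between gene classes. First genes exceeded single genes by 9.27 points, and by 9.24 and 8.25 points in replicates 1 and 2. The first-to-downstream difference was 6.48 points with a narrower window, 250 bp before to 100 bp past the start, and 6.43 points when a summit counted only for the gene with the nearest start. With first genes limited to those without a divergent start within 1000 bp it was 4.03 points.

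**Figure D1:**
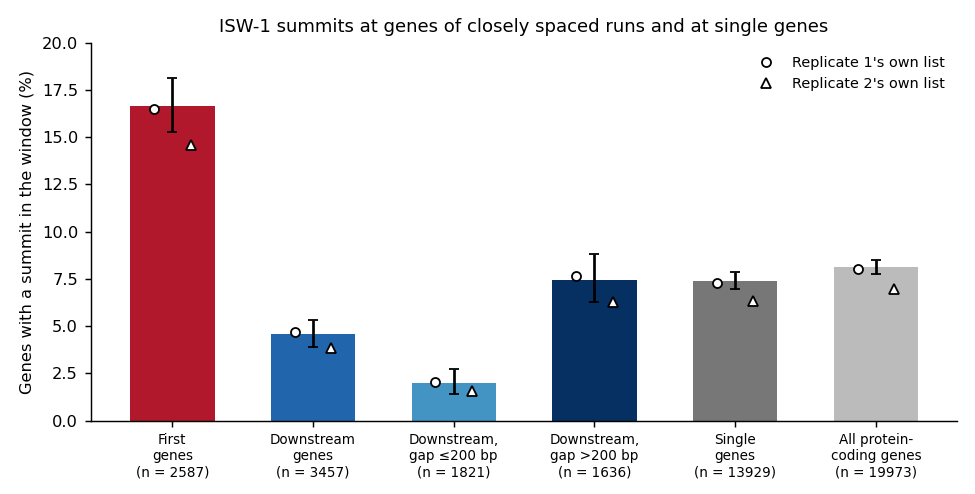
Share of genes (y axis, %) with an ISW-1 summit in that window, by role in a run (x axis). Bars show the conservative list with 95% Wilson intervals, and open symbols the replicates' own lists: first genes (16.7%) stand above single genes (7.39%), and downstream genes behind a gap of at most 200 bp (1.98%) below them.

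Within the same run the pattern was the same. Of the 2587 pairs of a first gene and the second gene of its run, 416 had a summit at the first gene only, 110 at the second only, 15 at both and 2046 at neither. The first gene thus held the summit in 79.1% of the pairs with a summit at just 1 of the genes, and in 79.0% and 79.3% of those pairs in replicates 1 and 2. Counted over whole runs, 406 had a summit at the first gene only, 131 at downstream genes only, 25 at both and 2025 at neither. In the 25 runs with both, the first gene and the downstream gene never shared a summit.

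The difference depended on how close the genes stood. Where the gap to the second gene was at most 200 bp, 310 pairs had a summit at the first gene only, against 27 at the second only. Where it was longer, up to 500 bp, these counts were 106 and 83. First genes themselves differed with this gap, which lies behind them and outside their upstream window: 23.9% of the 1312 first genes followed by a gap of at most 200 bp had a summit, against 9.18% of the 1275 followed by a longer gap. Replicate 1 gave 23.5% and 9.33%, and replicate 2 gave 21.4% and 7.53%. The share for first genes with a longer gap was thus near that of single genes.

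Downstream genes with a short gap in front of them seldom had a summit. The share was 2.91% with a gap of 0 to 50 bp, 1.84% above that to 100 bp, 1.25% to 150 bp and 3.34% to 200 bp. It was 6.91% with a gap above 200 and up to 300 bp, 7.01% up to 400 bp and 8.58% up to 500 bp. Over gaps of at most 200 bp it was 1.98% (36 of 1821 genes), against 7.46% (122 of 1636) over longer gaps, and the replicates gave 2.03% against 7.64% and 1.59% against 6.30%. The gaps had a median of 186 bp, and 1316 of 3457 (38.1%) were above 50 and up to 150 bp long.

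A short gap also leaves little space for a summit, and the window upstream of a downstream gene covered genic sequence for 56.5% of its length on average, against 13.3% for first genes and 12.7% for single genes. Summits were therefore also counted per megabase of sequence outside protein-coding genes. The density was 330 summits per Mb before first genes, 177 in the gaps of runs and 131 before single genes, against 43.9 in all sequence outside protein-coding genes. The value before first genes depended on their neighbour: it was 475 per Mb with a divergent neighbour and 138 with a tandem one (138 and 118 in replicates 1 and 2). Before first genes with a tandem neighbour the density was thus below the 177 per Mb of the gaps (182 and 149 in the replicates), so the order of first genes above downstream genes turned round per Mb in that arrangement. Gaps of at most 200 bp held 83.7 summits per Mb, against 209 in longer gaps. In replicate 1 these densities were 83.7 and 216, and in replicate 2 they were 68.0 and 176. Of the 16 summits in gaps of at most 200 bp, 9 lay in gaps above 150 bp, at 174 per Mb. Gaps above 100 and up to 150 bp held 59.9 per Mb and those above 50 and up to 100 bp held 39.8. Gaps of up to 50 bp, which cover 5573 bp in all, held 0 summits in the conservative list and 1 in replicate 1. Gaps above 50 and up to 100 bp held only 2 summits in the conservative list. That is too few to rank their density against the 43.9 per Mb of nongenic sequence as a whole.

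**Figure D2:**
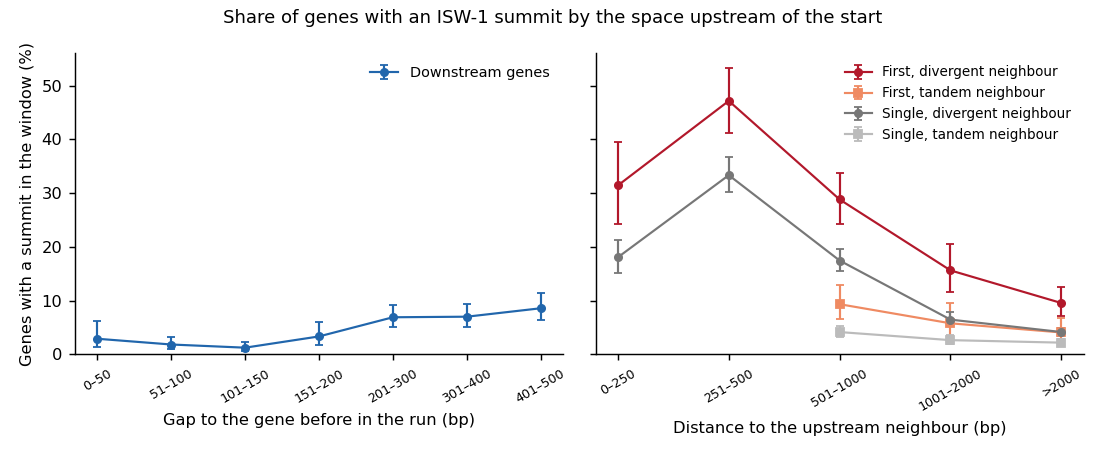
Left, share of downstream genes with a summit (y axis, %) by the gap to the gene before (x axis, bp); right, share of first and single genes by distance to the upstream neighbour (x axis, bp) and its orientation. Points are the conservative list with 95% Wilson intervals. Downstream genes reach at most 8.58%, and first genes with a divergent neighbour above 250 and up to 500 bp away reach 47.1%. A summit between divergent genes can count for both.

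What follows a gene in the run went with its own share also inside runs. Among downstream genes with more than 200 bp in front of them, 22.4% had a summit when the next gap was at most 200 bp (41 of 183, interval 17.0% to 29.0%). The share was 8.15% when the next gap was longer (15 of 184) and 5.20% when the gene was the last of its run (66 of 1269). Replicate 1 gave 21.9%, 7.61% and 5.59%, and replicate 2 gave 16.4%, 5.98% and 4.89%. A gene that opens a tightly packed stretch inside a longer run thus had a share near the 23.9% of first genes followed by a short gap. Behind a gap of at most 200 bp the shares were 3.37%, 1.13% and 1.75% for the same 3 classes. This grouping by both gaps was chosen after the values were seen.

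The share of first genes was higher in longer runs. It was 15.6% in runs of 2 genes, 17.7% in runs of 3, 25.2% in runs of 4 and 28.6% in the 63 runs of 5 or more genes. By position, runs of 3 had 17.7%, 8.05% and 2.30%, and runs of 4 had 25.2%, 11.7%, 1.80% and 2.70%. The 45 runs of 5 had 28.9%, 4.44%, 0%, 24.4% and 4.44%. For the count of 0 of 45 genes the Wilson interval reached 7.87%. The high value at the fourth gene of runs of 5 came from 11 genes and was 22.2% in replicate 1 and 13.3% in replicate 2. The intervals are wide for these few runs.

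**Figure D3:**
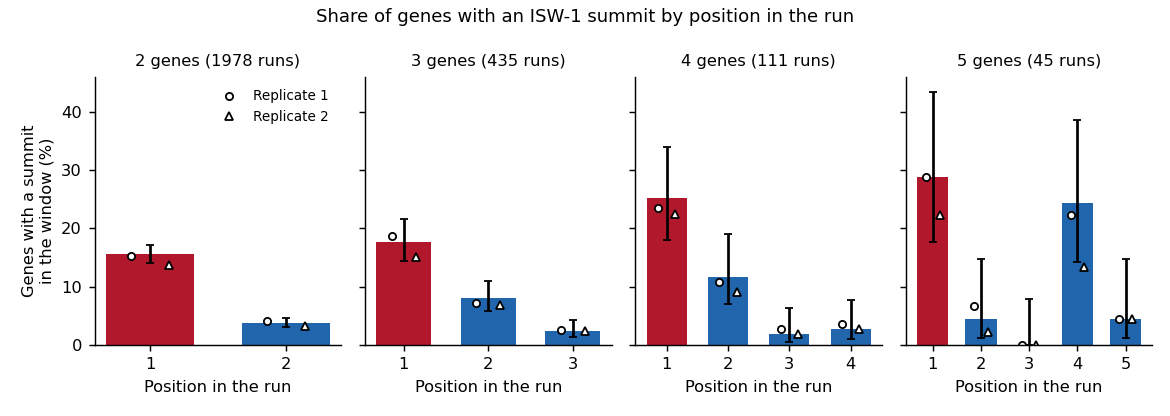
Share of genes with a summit (y axis, %) by position in runs of 2, 3, 4 and 5 genes (x axis), first genes in red and downstream genes in blue, with 95% Wilson intervals and the replicates' own lists as open symbols. The first gene has the highest share at each length, and the fourth gene of runs of 5 (24.4%) comes near it.

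Orientation of the neighbour upstream went with large differences. First genes with a divergent neighbour, which is transcribed away from them on the other strand, had a summit in 24.1% of 1463 cases. Those with a tandem neighbour more than 500 bp away or otherwise unchained had 6.95% (66 of 950), and those that overlap a gene at the start had 6.90% (12 of 174). Single genes had 11.6% with a divergent neighbour and 2.93% with a tandem one, so first genes were above single genes in both arrangements. The highest share among distances was 47.1%, for first genes with a divergent neighbour above 250 and up to 500 bp away, against 33.3% of single genes in that class. With a summit counted for the nearest start only, these shares were 19.0% and 18.4%, so first genes hardly exceeded single genes there. Above 500 and up to 1000 bp the main count gave 28.8% of first genes against 17.5% of single genes with a divergent neighbour. By the nearest start these were 15.8% and 11.8%. With a tandem neighbour at that distance the main count gave 9.34% against 4.15%. Where 2 first genes stood head to head within 1000 bp, 42.8% of 236 had a summit. In the 521 pairs of a first gene facing a single gene, 32.4% of the first genes and 34.0% of the single genes had a summit. The first genes were thus not above the single genes they faced. These shares are not independent, because 1 summit can count for both genes of a pair. With a summit counted for the nearest start only, 13.8% of these first genes and 22.1% of these single genes had a summit. Single genes facing a single gene had 19.5%.

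Because 1 summit between divergent genes can count for both, the summit with the highest signal counted for 2 genes at 252 of the 431 first genes, for 1 gene at 174 and for 3 or more at 5. At downstream genes it counted for 1 gene in 155 of 158 cases.

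Where a summit was present, its strength was similar. The median signal was 253 at first genes (range 64.7 to 2046), 234 at downstream genes (77.3 to 1368) and 226 at single genes. The median distance from summit to start was -212 bp at first genes, -147 bp at downstream genes and -187.5 bp at single genes. A summit in both replicates' own lists was present at 346 of 431 first genes (80.3%) and 122 of 158 downstream genes (77.2%), so summits inside runs recurred about as often.

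**Figure D4:**
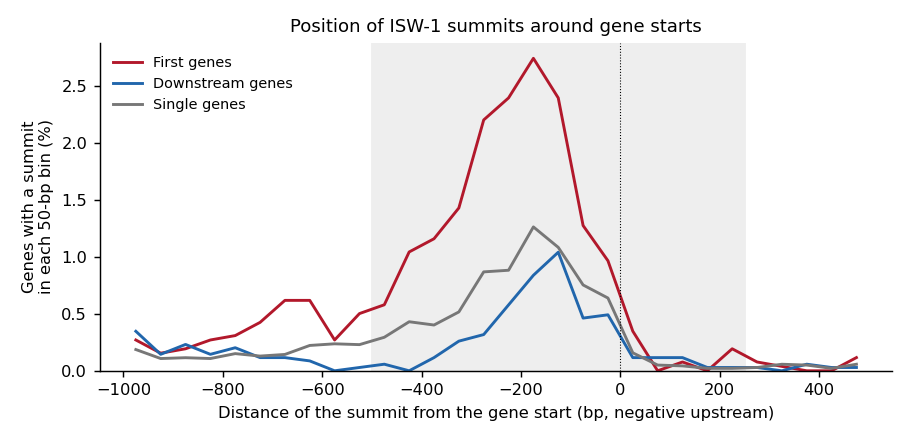
Share of genes with a summit in each 50-bp bin (y axis, %) by distance from the start (x axis, bp, negative upstream), for first, downstream and single genes in the conservative list; the grey band is the counting window. The 3 curves peak upstream of the start, that of first genes highest.

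Summits at downstream genes lay mostly in the gap. Of the 158, 134 were in the gap in front of the gene, 10 in the gene before (6 in an exon and 4 in an intron) and 14 in the gene itself (11 in an exon and 3 in an intron). Of the 36 behind gaps of at most 200 bp, 16 were in the gap. Over the full length of the runs 281 summits were found, of which 134 lay in gaps, 111 in introns and 36 in exons.

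The base composition at the summits was similar in the 3 roles and unlike that of upstream sequence without a summit. The windows of 50 bp to each side of a summit held 7.43 CG dinucleotides per 100 bp at 385 summits of first genes, 7.76 at 158 summits of downstream genes and 7.27 at 832 summits of single genes. Windows centred 150 bp upstream of genes without a summit held 3.08, 2.61 and 2.94 in the same order. G and C made up 46.9%, 46.1% and 47.4% of the summit windows, against 34.1%, 31.2% and 34.6% of the windows without a summit. Gaps of at most 200 bp held 2.57 CG dinucleotides per 100 bp, and 15.6% of them held none. Gaps over 200 bp held 4.39 per 100 bp in front of downstream genes with a summit, against 2.86 in front of those without. The share of summits that had, within 100 bp to either side, TGCGTCTC on either strand was 10.4% at first genes, 10.8% at downstream genes and 13.3% at single genes, against 2.57% of windows of the same length centred 150 bp upstream of all protein-coding genes. GCGCGAAA was found at 3.64%, 7.59% and 3.73%, the 7.59% being 12 windows, against 0.916% of all genes. The other strings counted were lowest at downstream genes. GGGCGG was found at 10.4%, 6.33% and 10.2%, against 5.59% of all genes, and GAGAGAGA at 5.19%, 3.16% and 6.37%, against 2.61%. These matches describe letters and name no factor.

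The bases before the start also differed by role. AG stood directly before the annotated start at 33.7% of first genes, 35.6% of downstream genes and 24.5% of single genes. It stood there at 44.1% of downstream genes with a gap of at most 200 bp and 26.1% of those with a longer gap. Annotated starts at AG often mark trans-splice sites, so that the true transcription start lies further upstream. First genes with AG before the start had a summit in 26.6% of cases, against 11.6% of those without. Downstream genes with a gap over 200 bp had 16.9% with AG (72 of 427), against 4.14% without (50 of 1209), and those with a shorter gap had 0.996% against 2.75%.

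Chromosomes differed in both roles, and the order first above downstream held on all 6. Chromosome III had 27.9% of first genes and 4.23% of downstream genes with a summit, chromosome I had 21.0% and 6.55%, and chromosome IV 18.3% and 5.20%. Chromosome II had 14.8% and 4.80%, and chromosome V 10.9% and 3.02%. Chromosome X was lowest among first genes, with 6.91% (15 of 217, interval 4.23% to 11.1%). Its downstream genes had 4.15% (11 of 265, 2.33% to 7.28%), and these intervals overlapped. Chromosome X also had the smallest share of its genes in runs (17.6%, against 28.9% to 36.0% on the autosomes).

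The strongest first genes were led by ribosomal protein genes; a signal given alone below is from the conservative list. The summit of rpl-20 had a signal of 2046 in the conservative list, 1261 in replicate 1 and 793 in replicate 2, and opened a run of 5 genes on chromosome IV. In that run cyc-2.1 (cytochrome c), tctn-1 and hoe-1 (an RNase Z) had no summit, and timm-17B.1, encoding a subunit of the mitochondrial import machinery and lying behind a gap of 330 bp, had a signal of 313. The timm-17B.1 gene is followed by a gap of 109 bp and so opens a tight pair inside the run.

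The tasp-1 summit had a signal of 1832, with 1089 and 739 in replicates 1 and 2. Its downstream partner dpy-28, a condensin subunit needed for dosage compensation, follows after 109 bp and had no summit. The rpl-15 summit had 1380 (881 and 495 in the replicates), with no summit at K11H12.1 behind a gap of 58 bp. These 3 first genes have a divergent neighbour 461 to 813 bp away. The summits of tasp-1 and rpl-15 lay nearest to their own start, and that of rpl-20 lay nearer to its divergent neighbour Y17G9B.5. Of the 10 strongest first genes, 6 had a summit nearest to their own start.

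A further 6 of the 10 strongest first genes shared a summit in pairs standing head to head. The summit of 1376 (862 and 527 in replicates 1 and 2) lay between rpl-12 and lin-54, a gene for a DNA-binding subunit of the DRM repressor complex. That of 1353 (777 and 580) lay between Y55F3AR.2 and cct-8, a chaperonin subunit gene. That of 1351 (844 and 512) lay between rps-12, which encodes a protein of the small ribosomal subunit, and ska-3. The tenth was drr-2, a gene for a translation initiation factor of the eIF4H type, with 1199 (738 and 450). No downstream gene in these runs other than timm-17B.1 had a summit.

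**Figure D5:**
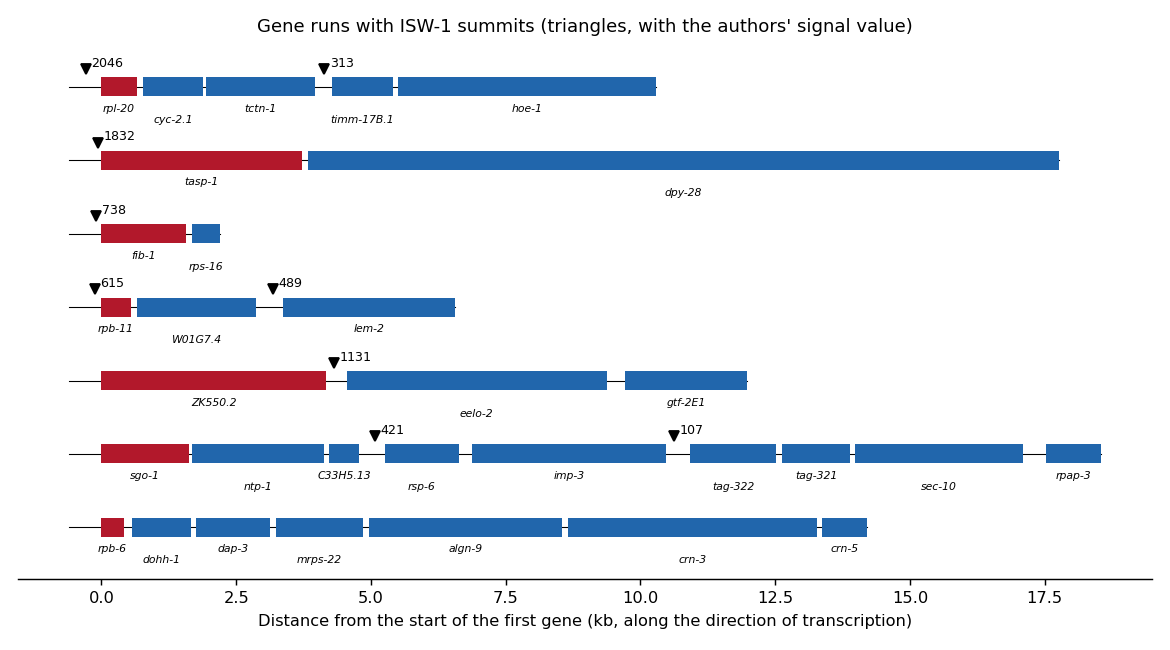
Genes of 7 runs to scale (x axis, kb from the start of the first gene along transcription), first genes in red and downstream genes in blue; triangles mark summits that fell in a gene's window, with the authors' signal in the conservative list. Summits stand before the first gene or in the wider gaps, and the rpb-6 run holds none.

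Among downstream genes with a summit nearer to their own start than to any other protein-coding start, the strongest had signals comparable with those of strong first genes. The Gq alpha subunit gene egl-30 had 1368 (810 and 557 in replicates 1 and 2) behind a gap of 222 bp, while the first gene of its run, C53H9.2, had 149. The mtcu-2 gene, which acts in mitochondrial tRNA modification, had 1185 behind a gap of only 52 bp, but the summit stood 465 bp upstream, within let-268. The dld-1 summit had 1135 (668 and 465) in a gap of 418 bp, and that of eelo-2 had 1131 (669 and 467) in a gap of 380 bp; the first genes nspg-9 and ZK550.2 had none. The translation initiation factor gene eif-3.C had 1018 in a gap of 400 bp, against 137 at the first gene sys-1.

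The other 10 of these 15 genes had signals of 653 to 912. They were icd-2, fbxl-2, cmtr-1, Y39B6A.43, bag-1, ddp-1, rbm-39, his-37, tba-2 and smu-1, among them genes for a nascent-chain binding protein (icd-2), an Hsp70 co-chaperone (bag-1), histone H4 (his-37) and an alpha tubulin (tba-2). Of the 15, 12 lay behind a gap over 200 bp. The exceptions were mtcu-2 (52 bp), Y39B6A.43 (75 bp) and rbm-39 (121 bp). In 11 of the 15 runs the first gene had no summit, and 10 of these were the strongest runs with summits at downstream genes only. In the run of fbxl-2 the first gene rbg-3 had 649.

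The longest run held 9 genes and opened with sgo-1 (shugoshin), which had no summit. Inside it the splicing factor gene rsp-6, behind a gap of 474 bp, had 421 (257 and 153 in the replicates), and tag-322, behind 442 bp, had 107, with 70.4 in replicate 1 and no summit in replicate 2's own list. The run of 8 genes opened by ran-4 had a summit of 194 at ran-4 alone. No gene of the 7-gene run opened by rpb-6, which encodes an RNA polymerase subunit, had a summit. The 6-gene runs opened by ztf-7 (796) and suco-1 (305) had a summit at the first gene only.

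Textbook operons gave mixed results. The fib-1 summit had 738 (490 and 238 in the replicates), and rps-16, 109 bp behind it, had none. The mev-1 gene, for a succinate dehydrogenase subunit, had 345 (196 and 140), and ced-9, the BCL-2 homologue 3 bp behind it, had none. No summit was found at gpd-2 and gpd-3, at the acetylcholine receptor genes des-2 and deg-3, or at lir-2, lir-1 and lin-26. The rule did not chain lin-15B with lin-15A or vha-11 with vha-3, and mai-1 overlaps gpd-2; these genes had no summit either.

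In the conservative list first genes of each group for basic functions had a summit more often than downstream genes. They did not always exceed single genes. The groups are small, and for translation factors the order changed between replicates. Replicate 1 gave 38.5% of 13 first genes against 40% of 5 downstream genes, and replicate 2 gave 61.5% against 20%. Among cytosolic ribosomal protein genes 26 of 28 first genes, 2 of 9 downstream genes and 38 of 44 single genes had a summit. The downstream genes were rps-17 (485) and rps-7 (178), behind gaps of 480 and 478 bp, and the first genes without a summit were rpl-43 and rla-2. Among mitochondrial ribosomal protein genes 8 of 16 first genes, 0 of 25 downstream genes and 11 of 29 single genes had one, led among first genes by mrps-7 (760), mrpl-17 (567) and mrpl-49 (483). For the count of 0 of 25 the Wilson interval reached 13.3%.

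Genes of RNA polymerase II and Mediator had a summit at 5 of 9 first genes, 1 of 13 downstream genes and 4 of 10 single genes. The first genes included rpb-11 (615), mdt-26 (519) and rpb-3 (410), and the downstream gene was rpb-5 (89.6, with none in either replicate's own list). In the rpb-11 run lem-2, an inner nuclear membrane protein gene behind 489 bp, had its own summit of 489. Exosome and ribosome biogenesis genes had 4 of 4, 1 of 7 and 5 of 6 in the same order, and proteasome genes 4 of 7, 2 of 8 and 11 of 18. The proteasome genes included the first gene rpn-3 (1097) and the downstream genes rpn-11 (515), a deubiquitinating subunit, and pbs-3 (111). The proteasome share of first genes was thus below that of single genes, 57.1% against 61.1%.

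Oxidative phosphorylation genes had 2 of 5 first, 4 of 15 downstream and 10 of 18 single genes with a summit. The first genes were atp-2 (528) and atp-5 (253), and the downstream genes were cyc-1 (416), sdha-1 (211), ucr-2.2 (183) and nuo-2 (129). Sm and splicing genes had 3 of 6, 1 of 4 and 12 of 20, translation factors 6 of 13, 2 of 5 and 11 of 15, tRNA synthetases 2 of 6, 1 of 8 and 3 of 17, and vacuolar ATPase genes 1 of 2, 1 of 5 and 4 of 13. First genes were also below single genes for oxidative phosphorylation (40% against 55.6%), Sm and splicing genes (50% against 60%) and translation factors (46.2% against 73.3%).

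Lectin, F-box and sperm protein families had few or no summits, and hormone receptors and collagens had few outside the first genes, set against 8.11% of all protein-coding genes. Nuclear hormone receptors had 2 of 28 first genes (nhr-49 with 225 and nhr-1 with 151; 7.14%, interval 1.98% to 22.6%), 0 of 37 downstream and 3 of 204 single genes. Collagens had 1 of 17 first genes (col-2, with 179; 5.88%, interval 1.05% to 27.0%), 0 of 23 downstream and 2 of 116 single genes. These shares of first genes were near the background. C-type lectins had none at 240 genes, F-box genes had 0 of 38, 0 of 54 and 6 of 230, and major sperm protein genes had none at 31. Of the sperm protein genes 28 were single genes, whose interval reached 12.1% and so included the background.

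The larger ranked list of 11648 peaks, which also holds peaks below the reproducibility threshold, gave the same order at higher shares. In it 28.8% of first genes, 13.2% of downstream genes and 16.2% of single genes had a summit, against 17.3% of all protein-coding genes.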

How the data were processed

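ISW-1::GFP ChIP-seq of whole L1 larvae (2 biological replicates, per the labels) was analysed from 5 peak lists on ce11. Per the notes deposited with the samples, peaks were selected by the irreproducible discovery rate (IDR). The aligner, peak caller and control used were not given in the sources used here. The signal value deposited with each peak was used only within a list, and the summit is the deposited offset added to the peak start. The ranked list has 8 more columns with values per sample; no label assigns them, and they were left out. Depth is unknown, since peak lists hold no counts.

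Genes were chained and summits assigned in Python 3.11.15 with Ensembl WBcel235 gene models. The main list was the conservative one. Gaps were split at 200 bp. Named genes were the 10 strongest first genes, the 15 strongest downstream genes nearest to the summit, the 5 longest runs, the 10 strongest runs with summits at downstream genes only, textbook operons and up to 3 members per gene list. The members, lists and comparisons were chosen with earlier results of these data known. Alternatives changed the list, replicate, window, assignment, gap, chaining, start, divergent neighbours and gene length. Sequences were read from the RefSeq genome of the same build, and none is printed from chromosome I. The result for 1 gene list, the chemoreceptors, is not reported here.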

Additional observations from a re-analysis of the deposited data

How the results depend on the processing

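Across 15 alternatives the first genes stayed above downstream genes and above single genes and held most pairs with a summit at just 1 gene, and across 14 alternatives short gaps stayed below long gaps. Values in this order are the first-to-downstream difference, the first-to-single difference, the first genes' share of such pairs and the short-to-long gap difference among downstream genes, in points or percent. With the 1071 peaks of highest signal they were 7.85, 6.34, 78.6 and -3.68. The window of 250 bp upstream to 100 bp downstream gave 6.48, 5.31, 72.9 and -4.34, and that of 1000 bp to 500 bp gave 14.1, 11.1, 81.5 and -3.85. Counting a summit for the nearest start only gave 6.43, 5.40 and 70.9. Chaining at 300 bp gave 17.5, 13.4 and 87.0, without the last difference. Downstream genes there had 1.98% with gaps of at most 200 bp and 6.91% with longer gaps. Chaining at 1000 bp gave 8.83, 5.60, 74.2 and -4.14. Without divergent starts within 1000 bp they were 4.03, 4.90, 63.8 and -4.18. With genes of 750 bp or longer the last 3 were 8.14, 77.6 and -4.45. The ranked list, chosen after seeing the data, gave 15.6, 12.6, 73.0 and -7.22. The pair share was 78.1 in the other thresholded list and 79.7 with the window ending at the start. With each replicate's list alone the ranges were 10.8 to 11.8, 8.25 to 9.24, 79.0 to 79.3 and -5.61 to -4.70. The causes of these shifts were not tested. Of the 10 named first genes, 6 kept a summit in the narrower window and 6 under the nearest start. Peak lists hold no reads, so a missing summit means only that none passed the threshold at an unknown depth. No paired analysis was possible because the series has 1 group.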
